A study of Mus musculus with 20 samples.

Results

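The 34 genes described here are transcripts by which absorptive enterocytes and goblet cells of the gut lining are usually recognised, read in RNA from sorted intraepithelial lymphocytes. They were taken by symbol from a fixed list, drawn up with earlier results of these data known. All 34 were found in 3 of the 4 tables, which hold 12975, 13624 and 25036 genes for the reporter, Prdm1 and Tcf7 experiments. The Bcl6 table of 13766 genes holds 33 of them and not Cdx2.

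Intraepithelial lymphocytes lie between the epithelial cells of the gut wall, so a suspension made from that layer starts with epithelial cells and their released RNA beside the T cells. Enterocytes absorb nutrients through a brush border of villin-bundled microvilli that carries digestive enzymes, and they repackage dietary lipid on apolipoproteins. Goblet cells secrete the mucin MUC2 with trefoil and lectin proteins. Both cell types share keratins, claudins and desmosomal proteins, and both are specified with the help of CDX homeobox factors. Some of these molecules, among them EpCAM, are also known from certain lymphocytes.

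Bulk RNA-seq was made from mouse small intestine at steady state. From Bcl6-RFP/RFP reporter mice, TCRαβ+CD8αα+ lymphocytes positive for RFP and CD160 (RFP+) and negative for both (RFP-) gave 3 libraries each, and 2 libraries with the title LI carry the same tissue and genotype in the labels, with no statement of what LI stands for. The knockouts were Bcl6fl/fl Cd8cre, Prdm1fl/fl Cd8cre and Tcf7fl/fl Cd8cre, with 2 libraries each of the whole CD8αα+ population against 2 of floxed littermates (Bcl6fl/fl, Prdm1fl/fl or Tcf7fl/fl). BCL6, BLIMP1 (from Prdm1) and TCF1 (from Tcf7) are transcription factors. Cd8cre, a Cre transgene named for the T cell gene Cd8, is in every knockout and in no littermate, so an effect of Cre and one of the deleted gene cannot be told apart. The labels give neither ages nor whether replicates came from separate animals, and p-values therefore measure only the spread between these samples, which may be technical.

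Values are FPKM, reads scaled to gene length and library depth, in the reporter and Bcl6 experiments. In the Prdm1 and Tcf7 experiments they are reads divided by 1 size factor per library, called signal here, with no correction for gene length. Levels were compared only within an experiment. Depth ran from 14536807 to 17367545 reads in RFP+ and RFP- libraries and was 30027019 and 22527643 reads in LI libraries. It ran from 22125635 to 23004047, 30138954 to 38385639 and 40975335 to 48206386 reads in the Bcl6, Prdm1 and Tcf7 experiments. T cell markers were high in every library: Cd8a ran from 281 to 946 FPKM over the reporter experiment and Ptprc, the gene of CD45, from 129 to 150.04 FPKM. Cd4 was at most 0.107 FPKM there, and Cd8b1, the second chain of CD8αβ, at most 1.27 FPKM. Cd4 was low but higher in every knockout group, without overlap. It ran from 1.08 to 1.76 against 0.0863 to 0.179 FPKM in the Bcl6 experiment. Signals were 48.7 to 66.5 against 6.21 to 8.63 (Prdm1) and 50.2 to 55.7 against 11.0 to 22.8 (Tcf7). Cd8b1 groups overlapped in the Bcl6 and Prdm1 experiments and were higher in Tcf7 knockouts (263 to 303 against 136 to 247). The deleted genes were lower in the libraries labelled knockout: Bcl6 was at 0.772 and 0.735 FPKM in littermates and 0.550 and 0.638 FPKM in knockouts, Prdm1 at signals of 6092 and 5117 against 639.9 and 362, and Tcf7 at 15430.3 and 15606 against 7757 and 7993. Bcl6 was thus barely expressed in its own littermates. In bulk RNA, fewer cells of a type and less RNA per cell cannot be told apart.

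The 34 transcripts together were a small share of the RNA. Their summed level was 51.5 and 47.5 FPKM in LI libraries, 80.9, 57.8 and 63.1 FPKM in the RFP+ group, and 70.0, 200.8 and 100.6 FPKM in the RFP- group. RFP- library 2 stood apart, with 0.0757% of all FPKM in these genes against 0.0253 and 0.0384% in RFP- libraries 1 and 3. In the Bcl6 experiment the sum was 283 and 312 FPKM in littermates and 339 and 293 FPKM in knockouts. In signal, it was 10386 and 9446 in Prdm1 littermates against 22187 and 28022 in Prdm1 knockouts, and 25349.5 and 25118.5 in Tcf7 littermates against 27789 and 27024 in Tcf7 knockouts. The sum therefore differed most between libraries within the RFP- group and between Prdm1 knockouts and littermates. Epcam was a large part of it, with means of 23.0, 31.8 and 46.7 FPKM in the LI, RFP+ and RFP- groups. In the Prdm1 experiment its mean signal was 2761 in littermates and 2787 in knockouts, so the sum changed less than most members.

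**Figure D1:**
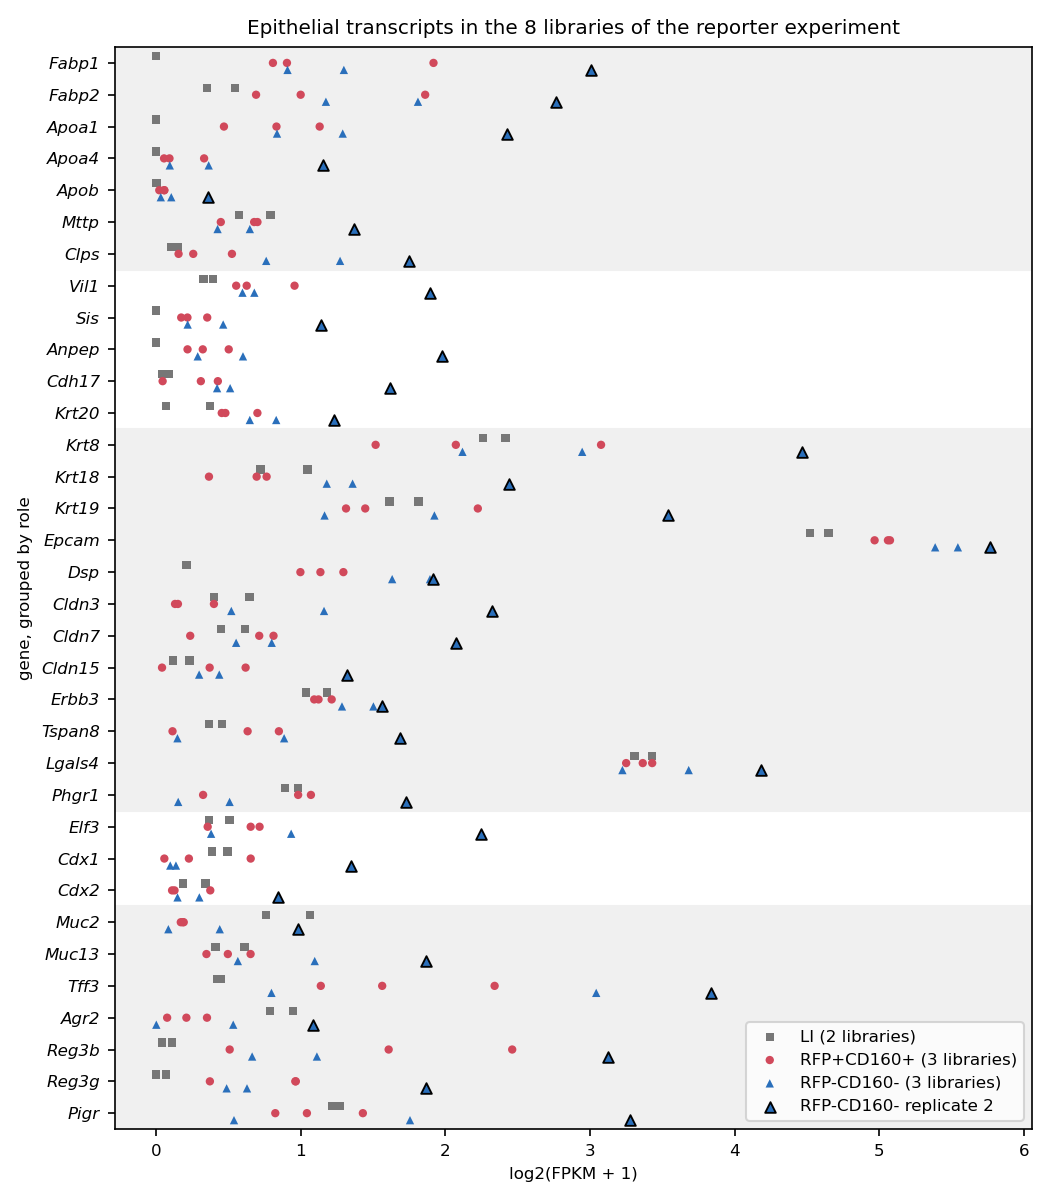
Level of each of the 34 genes, as log2(FPKM + 1), in the 2 LI, 3 RFP+CD160+ and 3 RFP-CD160- libraries, with genes in bands by role (lipid handling, brush border, keratins with junction and surface proteins, transcription factors, secretion with immunity). The outlined triangle is RFP- library 2, the highest of the 8 libraries in 33 of 34 genes, and Epcam is the highest of the 34 genes in each of the 8 libraries.

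RFP- library 2 is described first. It was singled out after its values were seen, so the counts below describe it and are no test. It had the highest level of all 8 libraries in 33 of 34 members, against 12.6% of all genes, and Muc2, at 0.968 FPKM there and 1.09 FPKM in LI library 1, was the exception. It was above both other RFP- libraries in 34 of 34 members, against 30.4% of all genes. The median ratio of library 2 to the mean of libraries 1 and 3 was 4.77 over the 34 members (quartiles 3.29 and 5.76) and 0.995 over 12930 genes with a value above 0 in the group. Of the 34 members, 29 were over 2-fold, as were 6.91% of these genes. Genes of Paneth cells, the defensin-secreting cells of the crypt, moved with the members: their median ratio was 4.66 over the 10 at a group mean of 1 FPKM or more, and their summed level was 55.8, 359.4 and 84.9 FPKM in RFP- libraries 1, 2 and 3. The T lymphocyte list had a median ratio of 0.986, with 0 of 12 genes above both other libraries. The part of such other cells in the results below was not tested.

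Library 2 did not lift every member equally. Krt8 and Krt19, intermediate filament keratins of simple epithelia, were at 3.34, 21.1 and 6.70 FPKM and 1.24, 10.6 and 2.79 FPKM in RFP- libraries 1, 2 and 3. Reg3b and Anpep, for a bactericidal C-type lectin and the peptidase of the brush border, were at 0.583, 7.72 and 1.16 FPKM and 0.220, 2.93 and 0.515 FPKM. Ratios of 4.21, 5.26, 8.86 and 7.98 resulted for these 4 genes. By contrast, the ratio was 1.15 for Dsp, 1.19 for Erbb3, 1.24 for Epcam and 1.70 for Lgals4, the lowest 4 of the 34, and 1.99 for Krt20, the next. As a difference in FPKM rather than a ratio, library 2 exceeded the mean of the others by 16.1 for Krt8, 8.59 for Krt19, 3.01 for Krt18 and 0.668 for Krt20 among the keratins. The difference was 10.3 FPKM for Epcam and 7.04 FPKM for Lgals4, within the range of the keratins, and 0.358 FPKM for Dsp and 0.311 FPKM for Erbb3, below all 4 keratins.

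The start regions of 5 members are shown for this difference: Fabp2, Sis and Krt20 are enterocyte genes of which library 2 held more, at ratios of 3.07, 4.43 and 1.99, and Epcam and Dsp are members at ratios of 1.24 and 1.15. Each line is the 150 bases before the annotated start, 5′ to 3′ on the gene's own strand, from RefSeq on GRCm38.p6. Capitals mark matches on either strand to TTTATNG, a CDX-type site that reads CNATAAA on the other strand, to CAAAGTNCA, an HNF4-type site, and to TATAAA, the TATA box. TATAAA is contained in some matches of the CDX-type site on the other strand.
Fabp2 (chr3:122894922-122895071, plus strand): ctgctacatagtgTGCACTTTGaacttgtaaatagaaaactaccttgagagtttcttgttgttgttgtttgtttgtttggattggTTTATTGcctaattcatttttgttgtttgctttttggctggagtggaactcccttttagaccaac
Sis (chr3:72967864-72968013, minus strand): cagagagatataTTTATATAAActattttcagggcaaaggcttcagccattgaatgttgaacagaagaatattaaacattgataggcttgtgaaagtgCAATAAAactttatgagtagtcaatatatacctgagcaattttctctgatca
Krt20 (chr11:99438154-99438303, minus strand): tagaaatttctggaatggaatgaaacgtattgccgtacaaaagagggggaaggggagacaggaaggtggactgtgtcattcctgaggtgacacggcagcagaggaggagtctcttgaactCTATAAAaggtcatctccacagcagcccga
Epcam (chr17:87635829-87635978, plus strand): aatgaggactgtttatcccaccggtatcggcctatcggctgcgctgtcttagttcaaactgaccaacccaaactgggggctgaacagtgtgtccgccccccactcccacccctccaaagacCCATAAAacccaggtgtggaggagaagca
Dsp (chr13:38151144-38151293, plus strand): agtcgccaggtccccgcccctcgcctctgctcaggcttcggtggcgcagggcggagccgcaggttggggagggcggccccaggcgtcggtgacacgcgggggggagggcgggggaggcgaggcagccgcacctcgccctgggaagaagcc

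Both Fabp2 and Sis hold a CDX-type match, as do Krt20 and Epcam, and the Dsp window holds no match to any of the motifs searched. Over the 250 bases before the start, 28 members had a window among 27025 genes. TTTATNG was found in 8 of them (28.6%) and in 11.3% of all windows, CAAAGTNCA in 3 (10.7%) and in 1.40%, and TATAAA in 7 (25%) and in 14.3%. The HNF1 motif searched was in 0 of the 28 and in 0.440% of all windows. These are matches of letters and describe the windows only.

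RFP+ cells had less of 4 members than RFP- cells. Epcam, a homophilic adhesion molecule of epithelia, had 32.7, 32.4 and 30.3 FPKM in the RFP+ group against 40.9, 53.5 and 45.7 FPKM in the RFP- group. Every RFP+ library lay below every RFP- library, with a log2 fold change of -0.53 ± 0.09 (SE, limma adjusted p = 0.0028, n = 3 per group). Dsp, the gene of desmoplakin, which anchors keratin to desmosomes, was at 0.995, 1.20 and 1.45 against 2.71, 2.76 and 2.10 FPKM, again without overlap (log2 fold change -0.67 ± 0.12, adjusted p = 0.0029). Erbb3, a receptor for neuregulins, was at 1.18, 1.13 and 1.32 against 1.83, 1.94 and 1.44 FPKM (log2 fold change -0.31 ± 0.10, adjusted p = 0.048). Krt18, the partner of keratin 8, was at 0.697, 0.287 and 0.618 against 1.26, 4.43 and 1.56 FPKM (log2 fold change -1.05 ± 0.30, adjusted p = 0.027). All RFP+ values of Krt18 were below 1 FPKM, so it met the filter only through the RFP- group, where it was higher. These 4 genes of 13 members tested were called lower, and limma called 38.0% of all genes in either direction (21.6% lower, 16.4% higher), so the count lies near the background. The balance of all calls depended on scaling: 1591 genes were higher and 2098 lower as deposited, and 3300 and 1171 with values rescaled to the same total per library, which moved the median of all genes to 0.12. Under that scaling Epcam, Dsp and Krt18 passed and Erbb3 did not. None was called higher, 0 also at an unadjusted p under 0.05.

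Without RFP- library 2, Epcam (log2 fold change -0.43, limma adjusted p = 0.0048), Dsp (-0.62, adjusted p = 0.014) and Krt18 (-0.66, adjusted p = 0.019) passed and Erbb3 did not (-0.25, adjusted p = 0.15). In all 34 members the difference lay below 0, with a median of -0.45 on the log2 scale against -0.01 over all 12975 genes. Without that library it lay below 0 in 25 of 34, with a median of -0.09 against -0.01. The size of the median difference thus rested largely on RFP- library 2. Leaving out RFP- library 1 gave 7 called members, and leaving out any 1 RFP+ library gave 2.

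Lgals4 and Krt8 had overlapping groups here. Lgals4, a galectin of the intestinal surface, had 9.78, 9.30 and 8.51 FPKM in the RFP+ group against 8.34, 17.1 and 11.8 FPKM in the RFP- group (adjusted p = 0.21). Krt8 was at 7.43, 1.86 and 3.20 against 3.34, 21.1 and 6.70 FPKM (adjusted p = 0.23). RFP+ library 1 was above both other RFP+ libraries in 24 of 34 members. That was so in 27.7% of genes at a group mean of 1 FPKM or more. The Paneth sum of RFP+ library 1 was 91.9 FPKM against 31.4 and 28.8 FPKM. The remaining 7 tested members had an adjusted p between 0.17 and 0.91, and 21 members were below 1 FPKM in too many libraries to be tested, with at most 4.00 FPKM (Cldn3) in any of the 6. Among these, Clps and Cldn3 also had RFP+ libraries below every RFP- library, and without the filter on low values Clps passed (log2 fold change -0.95, limma adjusted p = 0.023) and Cldn3 did not (-1.11, adjusted p = 0.082). For the 34 members that was so in 6, and for all genes in 25.0%, with 21.9% the other way.

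Other genes of the same cell types were read beside the members. Of 9 enterocyte genes tested that are no members, none was called (0 also at an unadjusted p under 0.05), and of 8 Paneth cell genes only Defa21 was, lower in RFP+ libraries (2.44 ± 2.20 against 10.1 ± 7.54 FPKM, SD, n = 3 each, limma adjusted p = 0.035). Some genes on the epithelial lists were steady from library to library. Cdh1, the gene of E-cadherin, had 59.7, 63.5 and 60.8 FPKM in the RFP+ group against 44.9, 47.4 and 46.5 FPKM, higher in RFP+ cells. Pkp2, a desmosomal plakophilin, was at 2.16, 2.94 and 2.80 against 7.33, 7.18 and 7.15 FPKM, lower in RFP+ cells. In RFP- library 2, with Krt8 at 4.21 times the mean of RFP- libraries 1 and 3, neither gene stood out.

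Several absorptive genes had no reads in LI libraries. Fabp1, Apoa1, Apoa4, Sis and Anpep, for a fatty acid carrier, a pair of apolipoproteins, sucrase-isomaltase and aminopeptidase N, were listed at 0 in both. At these depths a count of 0 allows up to 0.181 and 0.241 FPKM of Fabp1 and 0.0134 and 0.0178 FPKM of Sis (3 reads per library, counting error only). RFP+ libraries held Fabp1 at 2.78, 0.871 and 0.749 FPKM against 0.876, 7.05 and 1.46 FPKM for the RFP- group, and its group means were at least 6.09-fold and at least 13.0-fold higher than the larger limit. These bounds leaned on single libraries: they were 3.36 without RFP+ library 1 and 4.85 without RFP- library 2, and the lowest library of each group stood at 3.11 and 3.64 times the limit. For Sis the RFP+ values were 0.161, 0.276 and 0.127 FPKM and the RFP- values 0.162, 1.20 and 0.378 FPKM, with group means at least 10.5-fold and at least 32.5-fold higher. Without RFP- library 2 the latter bound was 15.1, and the lowest libraries stood at 7.11 and 9.09 times the limit. Apoa1 and Anpep were above their limits in every RFP+ and RFP- library, the lowest at 3.56 and 5.01 times. Apoa4 was not: its RFP+ mean stood at 1.64 times the limit, and at 0.703 without RFP+ library 1. Its lowest RFP+ and RFP- libraries stood at 0.517 and 0.909 times the limit, so its zeros in LI do not set LI apart from these. LI libraries were the deeper ones, so the zeros do not come with fewer reads.

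Some other members in LI libraries overlapped RFP+ libraries, and others lay above or below them. Lgals4 was at 9.78 and 8.90 FPKM, Krt8 at 4.34 and 3.79 FPKM and Krt19 at 2.51 and 2.06 FPKM, each overlapping the RFP+ libraries. Pigr, the receptor that carries IgA across the epithelium, was at 1.41 and 1.32 FPKM, and Phgr1 at 0.852 and 0.974 FPKM. Muc2 and Agr2, the gel-forming mucin and a disulfide isomerase that goblet cells need to fold it, were higher than in any RFP+ library: Muc2 was at 1.09 and 0.691 against 0.141, 0.135 and 0.125 FPKM and Agr2 at 0.722 and 0.928 against 0.155, 0.0533 and 0.275 FPKM. Both were below the level for testing. Without the filter Muc2 passed, with a log2 fold change of 0.73 (limma adjusted p = 0.049). For Tff3, the trefoil peptide of the same cells, LI libraries were at 0.338 and 0.360 FPKM and RFP+ libraries at 4.06, 1.95 and 1.20 FPKM. Reg3b was likewise lower in LI, at 0.0292 and 0.0777 FPKM against 2.05, 0.422 and 4.51 FPKM in RFP+ libraries.

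Against RFP+ libraries, 2 of 17 members tested were lower in LI (27.2% of all genes were called, 13.3% lower and 14.0% higher) and against RFP- libraries 8 of 17 (54.9% called, 28.3% lower and 26.6% higher). The comparisons share the LI libraries and 1 fit. A gene was tested at 1 FPKM in 2 libraries of this fit. Dsp, Fabp1, Fabp2, Apoa1, Clps and Tff3, all called, were below that in both LI libraries. They met the filter only through RFP+ or RFP- libraries, so the counts lower in LI are partly set by the filter. None was called higher in either, 0 at an unadjusted p under 0.05. Over all 34 members, both LI libraries lay below every RFP+ library in 15 and above in 2, against 24.4 and 30.5% of all genes, and below every RFP- library in 19 and above in 0, against 33.4 and 34.7%. The median difference of the members was -0.13 on the log2 scale against RFP+ and -0.67 against RFP- libraries (0.01 and 0.00 over all genes). Epcam was at 24.1 and 21.9 FPKM in LI libraries, below every other library (log2 fold change -0.45 against RFP+, adjusted p = 0.011, and -0.98 against RFP-, adjusted p = 4.2e-05). Dsp was at 0.155 and 0.152 FPKM in LI libraries (log2 fold change -0.94, adjusted p = 9.1e-04, and -1.61, adjusted p = 7.8e-06). For both genes the order was LI, RFP+, RFP-, with no overlap between neighbouring groups. Without LI library 2 the Epcam difference against RFP+ libraries did not pass (adjusted p = 0.11).

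The other 6 members called against RFP- libraries were genes of lipid handling, Tff3 and Erbb3. Fabp2, a fatty acid carrier, was at 0.276 and 0.460 FPKM in LI libraries against 1.25, 5.78 and 2.51 FPKM (log2 fold change -1.47 ± 0.44, adjusted p = 0.019). Clps was at 0.109 and 0.0727 against 0.694, 2.36 and 1.41 FPKM (-1.13 ± 0.25, adjusted p = 0.004) and Tff3 at 0.338 and 0.360 against 0.737, 13.3 and 7.24 FPKM (-2.13 ± 0.73, adjusted p = 0.034). Erbb3 was at 1.05 and 1.27 against 1.83, 1.94 and 1.44 FPKM (-0.34 ± 0.11, adjusted p = 0.027). All 4 had groups that did not overlap. Fabp1 and Apoa1, listed at 0 in LI libraries, passed as well (adjusted p = 0.025 and 0.0094), and Apoa1 was at 0.784, 4.37 and 1.44 FPKM in RFP- libraries. Their RFP- values include library 2, and without it 6 members were called, Tff3 and Erbb3 no longer among them. Leaving out RFP- library 1 gave 13 and leaving out either LI library gave 3. On the Paneth list, Defa24 was listed at 0 in both LI libraries and ran from 8.48 to 32.8 FPKM in the RFP+ group and from 19.5 to 141 FPKM in the RFP- group. Mptx1, a pentraxin on the same list, went the other way. It was at 3.08 ± 1.77 FPKM in LI (SD, n = 2) and listed at 0 in all 6 other libraries. Of 10 Paneth genes tested it was the 1 called higher in LI, with 6 lower against RFP+ and 8 lower against RFP- libraries. T cell markers differed as well, Cd8a at 281 to 297 FPKM in LI against 542 to 612 FPKM in RFP+ libraries, and Cdh1 was at 101 and 94.8 FPKM, the highest of the 8 libraries.

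In Bcl6 knockouts 1 member changed. Of 28 members tested, limma called 1 lower and 0 higher (0.418% of all genes were called, 0.387% lower and 0.0313% higher; 2 members were higher and 3 lower at an unadjusted p under 0.05). The median over the 33 members was -0.05 on the log2 scale and -0.01 over all 13766 genes, with 16 above and 17 below 0. Both knockouts lay above both littermates in 7 of 33 members and below in 4, against 15.9 and 16.9% of all genes. The knockout libraries differed, and with 1 library left out the number of calls moved among the members and among all genes. Epcam was at 66.8 and 67.0 FPKM in littermates and 69.7 and 59.4 FPKM in knockouts (adjusted p = 0.98), which overlap. Fabp1 was at 25.8 and 29.4 against 32.9 and 39.7 FPKM (adjusted p = 0.88) and Tff3 at 20.6 and 27.0 against 47.1 and 32.9 FPKM (adjusted p = 0.49). Both knockout libraries lay above both littermates for these 2 genes, but the difference did not pass the test. The log2 fold changes of the 27 members tested and not called ran from -0.56 (Agr2) to 0.72 (Tff3). Apob, Sis, Dsp, Cdx1 and Anpep were too low to test.

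Clps was the member called. It encodes colipase, a cofactor of pancreatic lipase, from chr17:28558149-28560766 on the minus strand, and was at 4.77 and 9.10 FPKM in littermates and 0.799 and 0.0721 FPKM in knockouts (log2 fold change -2.46 ± 0.32, adjusted p = 0.014, n = 2 per group). Both knockouts lay below both littermates, and the call was lost with a pseudocount of 0.1 in place of 1 and with quantile normalization. Both knockouts were also below 1 FPKM, so Clps met the filter only through the littermates, where it was higher. Cela1, the most abundant gene of a list of pancreatic enzymes, was at 108 and 108 FPKM in littermates against 132 and 102 FPKM. In RFP- libraries 1, 2 and 3 Cela1 was steady, at 72.9, 79.2 and 78.5 FPKM, where most members were not. Ctrl, the next of that list in the Bcl6 experiment, was at 0.865 and 1.99 FPKM in littermates against 1.23 and 0.457 FPKM. The source of the Clps reads was not tested. Paneth cell genes did differ in these libraries, with 5 of 9 lower and a summed level of 276 and 291 FPKM in littermates against 72.5 and 65.4 FPKM in knockouts. Defa39 was at 33.4 ± 3.29 FPKM in littermates and 3.78 ± 0.516 FPKM in knockouts (SD, n = 2 each), and Lyz1 at 44.9 and 51.7 against 10.4 and 6.80 FPKM. The enterocyte and goblet sum was 283 and 312 against 339 and 293 FPKM in the same libraries and did not fall with the Paneth sum. Because alpha-defensin genes resemble each other closely, the value of any one of them is uncertain.

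In Prdm1 knockouts almost the whole set was higher. Of 33 members tested, 26 were higher and 0 lower in knockouts (0 lower also at an unadjusted p under 0.05, and in edgeR and DESeq2), against 6.84% of all genes called, 4.29% higher and 2.54% lower. The median log2 fold change over all 34 was 1.76, against -0.02 over all 13624 genes, and both knockout libraries lay above both littermates in 32 of 34, as in 25.5% of all genes, and below in none (26.4% of all genes). As a ratio of group means it had a median of 3.48 (quartiles 2.64 and 4.24), and 28 of 34 members lay between 2 and 5. Of the 26 members at a signal of 50 or more in both littermates, 23 were called. The other called members, Cdx1, Cdx2 and Phgr1, met the filter through the knockouts, where they were higher. The count of 26 lay between 23 and 31 when any 1 library was left out. edgeR and DESeq2 on the recovered reads each called 27, and quantile normalization 19.

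**Figure D2:**
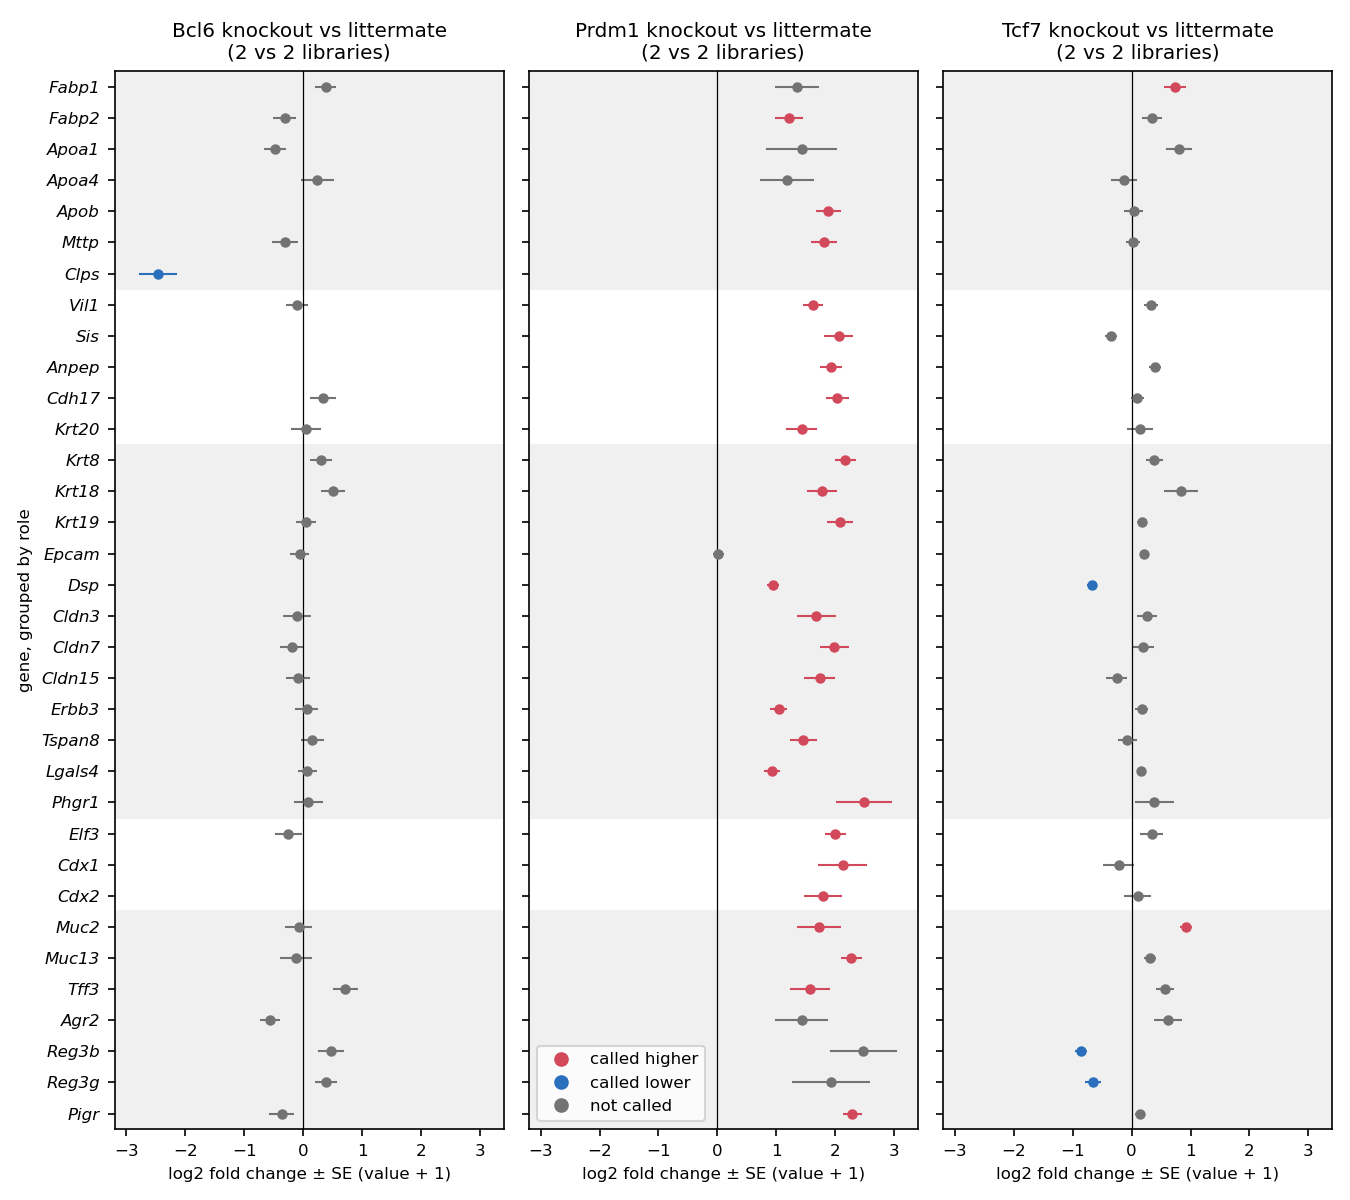
Log2 fold change with its standard error for each member in the Bcl6, Prdm1 and Tcf7 knockouts against littermates (2 libraries against 2 in each panel), from limma on log2(value + 1); red and blue mark genes called higher and lower at an adjusted p under 0.05. In the Prdm1 panel 26 members are red and Epcam sits at 0.01, in the Bcl6 panel only Clps is called, and in the Tcf7 panel 2 are red and 3 blue.

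Brush border genes rose together in the Prdm1 knockout, 5 of 5. Vil1, the gene of villin, was at signals of 252 and 222 in littermates and 669 and 793 in knockouts (log2 fold change 1.62 ± 0.17, adjusted p = 0.0044). Sis was at 202 and 164 against 606 and 953 (2.06 ± 0.25, adjusted p = 0.0071) and Anpep at 238 and 262 against 823 and 1113 (1.93 ± 0.18, adjusted p = 0.0036). No library of either group overlapped the other in any of them. Cdh17, a cadherin of the enterocyte's lateral membrane, was at 159 and 173 against 585 and 799 (2.04 ± 0.20, adjusted p = 0.0039) and Krt20, a keratin of differentiated villus cells, at 62.1 and 56.9 against 167 and 157 (1.43 ± 0.26, adjusted p = 0.025).

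Of 6 genes of lipid handling tested, 3 were called higher. Apob, the structural protein of chylomicrons, was at signals of 212 and 148 against 626 and 690.2 (log2 fold change 1.88 ± 0.21, adjusted p = 0.0059). Mttp, which loads lipid onto it, was at 216 and 167 against 570.0 and 783 (1.81 ± 0.22, adjusted p = 0.0076). Fabp2 was at 79.7 and 76.8 against 193 and 173 (1.21 ± 0.24, adjusted p = 0.033). Fabp1 (98.3 and 48.3 against 166 and 190.2), Apoa1 (118 and 30.2 against 198 and 134) and Apoa4 (118 and 60.4 against 279.7 and 133) also had no overlap between groups, but their littermates were uneven and they did not pass (adjusted p = 0.09, 0.25 and 0.2). Clps, at 4.14 and 17.3 against 7.42 and 104, was too low to test.

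The 3 transcription factors of the set all rose. Elf3, an epithelial ETS factor, was at signals of 188 and 181 in littermates and 657 and 836 in knockouts (log2 fold change 2.00 ± 0.18, adjusted p = 0.0035). Cdx1 was at 18.6 and 35.4 against 119 and 113 (2.13 ± 0.42, adjusted p = 0.031) and Cdx2, its homologue, at 51.7 and 36.2 against 139 and 168 (1.80 ± 0.32, adjusted p = 0.023). Hnf4a, a nuclear receptor of enterocytes on the list of other epithelial regulators, was at 754 ± 31.4 in knockouts and 148 ± 10.3 in littermates (SD, n = 2 each, log2 fold change 2.34, limma adjusted p = 0.0025), and Klf5 at 307 ± 1.05 against 58.4 ± 0.816.

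Among secretory and immune genes, 4 of 7 were called. Pigr was at signals of 580.3 and 601 in littermates and 2462 and 3385 in knockouts (log2 fold change 2.29 ± 0.16, adjusted p = 0.0025). Muc13, a membrane-bound mucin, was at 293 and 223 against 1160.1 and 1318 (2.27 ± 0.18, adjusted p = 0.0027), Muc2 at 451 and 219 against 794 and 1355 (1.72 ± 0.38, adjusted p = 0.045) and Tff3 at 113 and 60.4 against 222 and 278 (1.58 ± 0.34, adjusted p = 0.042). Reg3b, at 80.7 and 59.5 against 201 and 756, had the highest ratio of means, 6.82, and much of it came from 1 knockout library (adjusted p = 0.054). Reg3g (100.3 and 38.0 against 127 and 445) was also uneven, and Agr2 was at 29.0 and 61.3 against 93.2 and 142 (adjusted p = 0.16 and 0.13). The Muc2 call was lost in DESeq2.

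Of the 12 keratins, claudins and surface proteins, 11 were called higher. Krt8 was at signals of 250.3 and 198 in littermates and 929 and 1094 in knockouts (log2 fold change 2.17 ± 0.18, adjusted p = 0.0028), Krt18 at 60.0 and 66.4 against 196 and 243 (1.77, adjusted p = 0.013) and Krt19 at 361 and 299 against 1134 and 1708 (2.08, adjusted p = 0.0044). The tight junction genes Cldn3 (164 and 83.7 against 356 and 402), Cldn7 (103 and 78.5 against 324 and 400.2) and Cldn15 (65.2 and 70.8 against 195 and 268) rose with log2 fold changes of 1.68, 1.99 and 1.74 (adjusted p = 0.03, 0.0074 and 0.015). Tspan8, a tetraspanin, was at 99.3 and 81.1 against 248 and 249 (1.46, adjusted p = 0.016) and Phgr1 at 17.6 and 10.4 against 74.2 and 87.3 (2.49, adjusted p = 0.028). No knockout library overlapped a littermate in any of these 8 genes. Phgr1 met the filter only through the knockouts, where it was higher.

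Epcam, the most abundant member, was level. Its signal was 2744 and 2778 in littermates and 2763 and 2812 in knockouts, with overlapping groups, a log2 fold change of 0.01 ± 0.09 and an adjusted p of 0.95. Epcam lies at chr17:87635979-87651129 (plus strand) in GENCODE vM21 on GRCm38. The smallest called changes followed: Lgals4 at 1033 and 1059 against 1761 and 2241 (log2 fold change 0.92 ± 0.14, adjusted p = 0.014), Dsp at 1494 and 1449.6 against 2697 and 2984 (0.95 ± 0.10, adjusted p = 0.005) and Erbb3 at 328 and 331 against 645 and 714 (1.04 ± 0.14, adjusted p = 0.011). Their ratios of means were 1.91, 1.93 and 2.06, against the median of 3.48 for the set. These are the 4 members with the lowest ratios in RFP- library 2 too, which was seen after the values were known. As differences in signal per kilobase of exon, knockouts exceeded littermates by 588 for Krt19, 580 for Pigr, 412 for Lgals4, 402 for Krt8, 142 for Dsp, 58.2 for Erbb3 and 12.0 for Epcam. The differences of Lgals4 and Krt8 were thus of similar size, and that of Epcam stood on a littermate level of 1258 per kilobase.

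**Figure D3:**
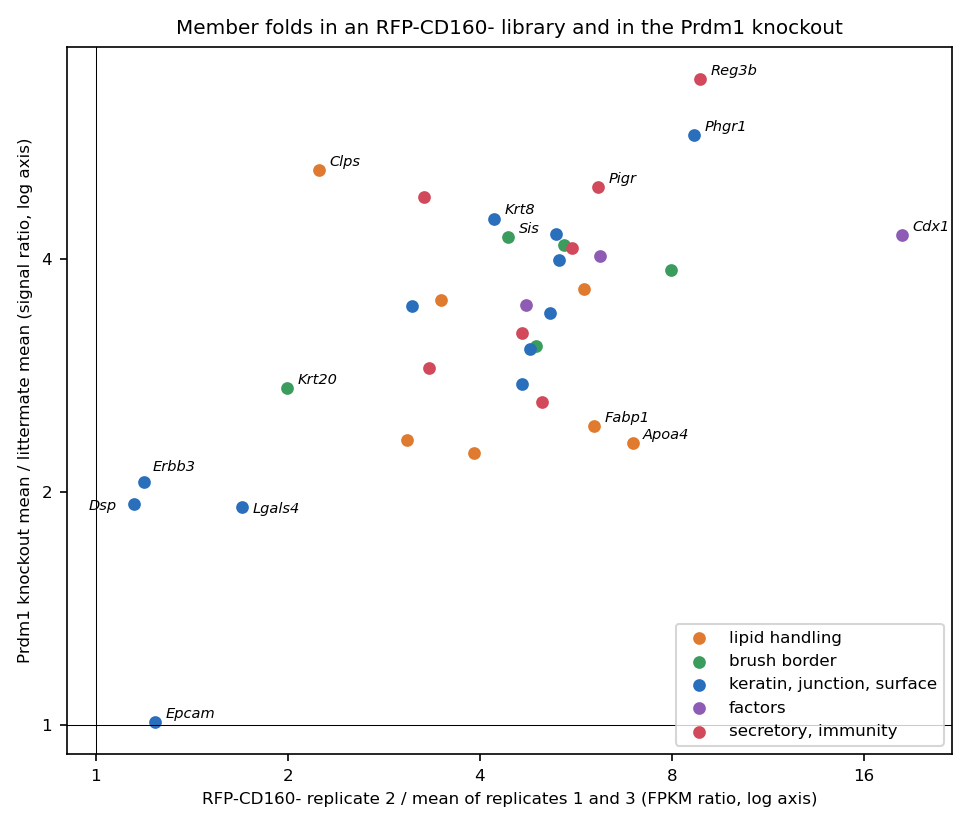
For each of the 34 members, the ratio of RFP- library 2 to the mean of RFP- libraries 1 and 3 (horizontal, FPKM, log axis) against the ratio of the Prdm1 knockout mean to the littermate mean (vertical, signal, log axis), coloured by role. Epcam, Dsp, Erbb3 and Lgals4 lie at the lower left, from 1.15 to 1.70 on the horizontal axis, and Epcam alone lies at 1.01 on the vertical axis.

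Other epithelial genes rose in the same Prdm1 knockout libraries. Of 26 enterocyte genes tested that are no members, 15 were higher, among them the disaccharidase gene Mgam (1673 ± 503 against 337 ± 39.2, SD, n = 2 each, limma adjusted p = 0.0036), and of 22 junction, keratin and regulator genes 16 were. Olfm4, a marker of crypt stem cells, was at 274 and 399.5 in littermates and 2404 and 1785 in knockouts. Of 7 goblet genes tested, Fcgbp was higher and Sytl2 lower. Of 15 Paneth genes none was called, although 7 were higher at an unadjusted p under 0.05: their sum was 2107 and 4582 in littermates and 4461 and 24384 in knockouts, so only knockout library 2 stood out. That library had the highest value in 29 members and knockout library 1 in the other 5. The matching share of all genes was not counted. Knockout library 1 alone gave a median member difference of 1.59 on the log2 scale, against 1.96 for knockout library 2 alone, so the members' increase did not rest on the library that was rich in Paneth transcripts. With limma, 23 members were called without library 2 and 24 without library 1, and Krt20, Fabp2 and Phgr1 did not pass in either case. The part of epithelial cells or their RNA carried through the sort in these increases was not tested.

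T cell transcripts of these libraries differed as well. On the T lymphocyte list, 4 of 12 were lower, led by Gzma, Gzmb and Ccl5, and none was higher (0 at an unadjusted p under 0.05). Cd3e ran from 36049 to 38331 in littermates and from 26788 to 28453 in knockouts, and Ptprc from 97804 to 103997 and from 99015 to 107258. Cdh1 and Galnt12, from the epithelial lists, also had overlapping groups: Cdh1 was at 10768 and 10227 against 10652 and 9597, and Galnt12 at 1177 and 1052 against 951 and 1093. The summed member level was 2.24 and 2.83 times the littermate mean in the knockout libraries, and the part of the loss of granzyme transcripts in size factors was not tested. With values rescaled to the same total per library, 27 members were called.

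**Figure D4:**
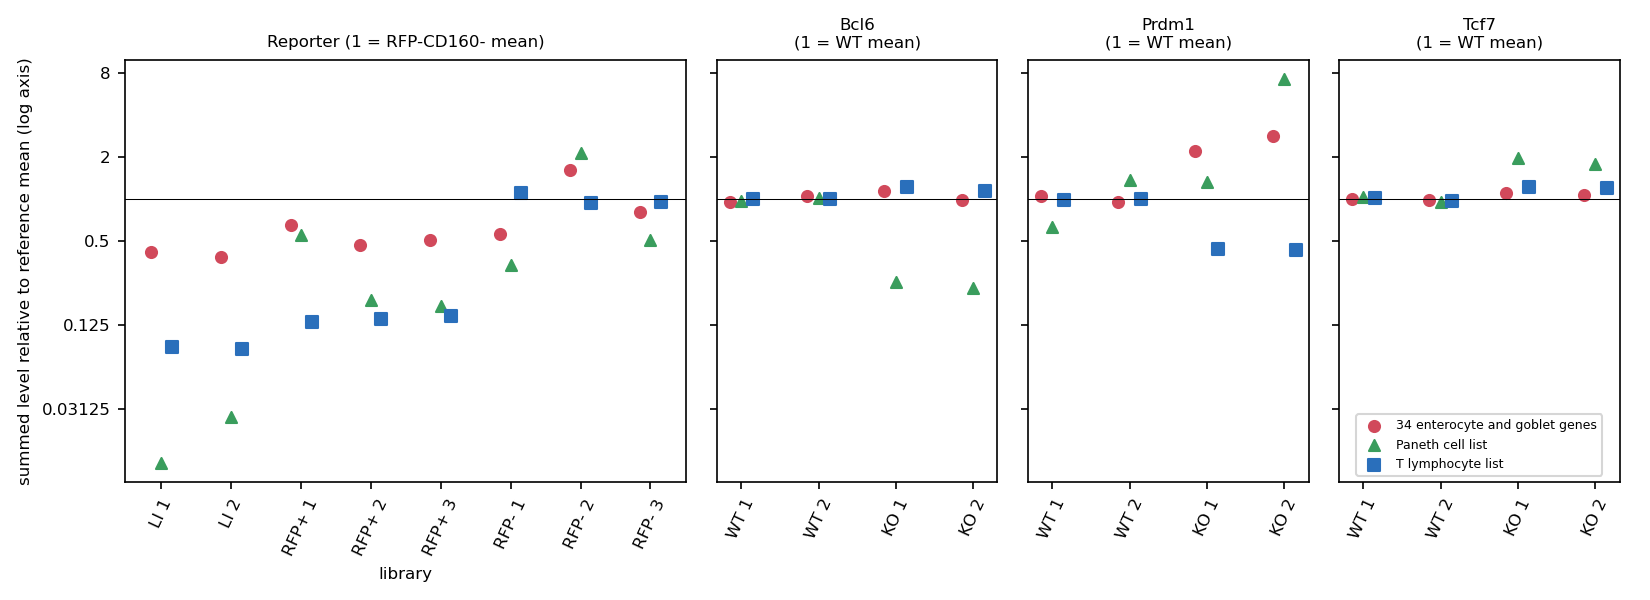
Summed level per library of the 34 members, a Paneth cell list and a T lymphocyte list whose most abundant genes are granzymes, each divided by its mean in the reference group (RFP- libraries, or littermates marked WT), on a log axis. In the Prdm1 panel the members stand at 2.24 and 2.83 in knockouts and the Paneth list at 1.33 and 7.29, whereas in the Bcl6 panel the Paneth list stands at 0.256 and 0.231 with the members at 1.14 and 0.985.

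In Tcf7 knockouts 5 of 33 members changed, 2 up and 3 down (2.72% of all genes were called, 1.49% higher and 1.23% lower). At an unadjusted p under 0.05, 13 were higher and 4 lower. Over the 34 members the median log2 fold change was 0.18, against 0.00 over all 25036 genes. Muc2 was at signals of 599 and 662 in littermates and 1199 and 1195 in knockouts (log2 fold change 0.93 ± 0.10, adjusted p = 1.4e-04), and Fabp1 at 203 and 182 against 339 and 303 (0.74 ± 0.18, adjusted p = 0.046). Dsp fell from 1663 and 1875 to 1067 and 1151 (-0.67 ± 0.09, adjusted p = 6.0e-04). Reg3b fell from 1083 and 993 to 569 and 575 (-0.86 ± 0.11, adjusted p = 3.4e-04) and Reg3g from 606 and 576 to 401 and 353 (-0.65 ± 0.13, adjusted p = 0.017). Groups were apart for all 5. Both Reg3 genes encode secreted lectins against bacteria, and their GENCODE transcripts share 0 stretches of 50 bases. The Fabp1 call was lost without the filter, with library totals rescaled and without either knockout library, and Reg3g did not pass without knockout library 2 (adjusted p = 0.16).

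The members that led the set by level did not pass in the Tcf7 knockout. Epcam was at 4625 and 4424 in littermates and 5410.4 and 5062 in knockouts (log2 fold change 0.21 ± 0.06, adjusted p = 0.092), Lgals4 at 2297 and 2228 against 2563 and 2499 (adjusted p = 0.32) and Krt19 at 1775 and 1684 against 1999 and 1901 (adjusted p = 0.35). Knockouts lay above littermates in 20 of 34 members, as in 19.1% of all genes, and below in 6, as in 19.2%. The log2 fold changes of the 28 members tested and not called ran from -0.35 (Sis) to 0.84 (Krt18), and Clps was too low to test. Leaving out littermate library 1 gave 11 called members (7 higher, 4 lower), littermate library 2 gave 9 (6 higher, 3 lower) and knockout library 2 gave 3 (1 higher, 2 lower). Of 8 other goblet genes 5 were higher, Zg16 (755 ± 91.2 against 485 ± 12.7, SD, n = 2 each, limma adjusted p = 0.013), Fcgbp and Clca1 first. Tff3, at 350.2 and 436 against 643 and 527, and Agr2, at 112 and 112 against 151 and 196, did not pass (adjusted p = 0.072 and 0.28). Paneth genes were higher in 13 of 17, Lyz1 at 2241 and 2011 against 4037 and 3697, and 3 of 5 stem, tuft and endocrine genes were, Olfm4, Chgb and Reg4. The enterocyte list held 1 gene higher, Rbp2, and 1 lower, Adh1, of 28. The part of a different mix of epithelial cells in the members' changes was not tested.

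Dsp was called in 5 of the 6 comparisons. It was lowest in LI libraries, higher in RFP+ and highest in RFP- libraries, it was higher in Prdm1 knockouts and it was lower in Tcf7 knockouts. The gene lies at chr13:38151294-38198577 on the plus strand. Its counts in the Bcl6 experiment were under the level for testing (0.738 and 0.566 against 0.482 and 0.707 FPKM). Counting by strand is not stated, and the gene has exons that overlap a gene on the other strand, as do Krt8, Muc13, Vil1, Apoa4, Cldn3, Tspan8, Elf3 and Mttp.

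By level, Epcam was first of the set in every group, and it was the only member above 20 FPKM in the LI and RFP+ libraries. Lgals4 was second in the LI, RFP+ and RFP- groups by FPKM and in both Prdm1 groups and Tcf7 littermates by signal per kilobase of exon. In the RFP- group the members next in order, Krt8 (10.4 ± 9.46 FPKM, SD, n = 3) and Tff3 (7.08 ± 6.27 FPKM), did not differ beyond their spread. In Bcl6 littermates the same held for Fabp1 (27.6 ± 2.57 FPKM, SD, n = 2), Lgals4 (27.2 ± 1.71 FPKM) and Krt8 (27.0 ± 3.72 FPKM). Among genes on none of the lists, those whose log2 level followed the summed members most closely over the 8 reporter libraries were Idh1 (Pearson r = 0.984), Cdc7 (0.956), R3hcc1l (0.951), Urgcp (0.948) and Esco1 (0.945), given as a description. Idh1 ran from 1.73 FPKM in LI library 2 to 3.62 FPKM in RFP- library 2. The 8 libraries share their table and its scaling, and RFP- library 2 sets much of the range.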

How the data were processed

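RNA from sorted mouse lymphocytes was sequenced in 20 libraries by 1 of 2 companies, with no statement of which made which library. RSEM, Bowtie2, featureCounts, Subread, DESeq2, Trim Galore 0.4.4 and the build mm10 are listed in the submitters' processing notes without their roles, and strand is not stated. The authors deposited FPKM per gene for the reporter and Bcl6 experiments. For the Prdm1 and Tcf7 experiments the deposited values are a signal, reads divided by a library's size factor. Steps between low values gave whole reads, and so the depth: 97.07 to 97.82% of FPKM values (tolerance 0.02) and 100% of signal values (tolerance 0.01) were whole multiples.

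Each experiment was fitted alone with limma 3.58.1 in R 4.3.3 (lmFit, eBayes with trend) on log2(value + 1), with Benjamini-Hochberg adjustment across all genes tested and a threshold of 0.05. A gene was tested at 1 FPKM or a signal of 50 in a number of libraries equal to the smaller group's size. Fold changes are on the log2(value + 1) scale and understate those of low genes. Both LI comparisons come from 1 fit of 3 groups. edgeR 4.0.16 and DESeq2 1.42.0 were run on recovered Prdm1 reads. Alternatives were the pseudocount, the filter, scaling, a replicate block and leaving out each library. The fits were tested on simulated data.

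The 34 members and all other lists were chosen with earlier results of these data known. Values per library are given for every member called in any comparison and for the 3 with the highest mean level in each experiment. From the other lists, up to 3 genes with the smallest p and the 2 most abundant are named, and members or libraries singled out beyond that were chosen after their values were seen. Start regions are RefSeq sequence on GRCm38.p6, and exon lengths are from GENCODE vM21.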

Additional observations from a re-analysis of the deposited data

Results flagged for a closer look

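In 10 members, every knockout library lay on one side of both littermates in 1 experiment and on the other side in another. None of these differences between knockouts was tested, the tables were normalized separately, and each ratio below is a knockout mean over a littermate mean within its own experiment. Reg3b was at 1.47 in the Bcl6 and 6.82 in the Prdm1 knockout and at 0.551 in the Tcf7 knockout, and Reg3g at 1.4, 4.14 and 0.638. Dsp was at 1.93 in the Prdm1 and 0.627 in the Tcf7 knockout, and both changes passed in their own experiment. Sis was at 4.26 and 0.788, Cldn15 at 3.41 and 0.833 and Cdx1 at 4.3 and 0.851 in the Prdm1 and Tcf7 knockouts. In the Bcl6 knockout Vil1 was at 0.88, against 3.08 in the Prdm1 and 1.26 in the Tcf7 knockout. Apoa1 was at 0.701 in the Bcl6 knockout, against 2.24 and 1.74, and Agr2 at 0.632, against 2.61 and 1.55. Clps was at 0.0628 in the Bcl6 and 2.16 in the Tcf7 knockout. With 2 libraries in each group, groups that do not overlap are common. Upwards, 15.9% of all genes were so in the Bcl6, 25.5% in the Prdm1 and 19.1% in the Tcf7 experiment. Downwards, the shares were 16.9, 26.4 and 19.2%. The share of all genes on opposite sides in different experiments was not counted, so the 10 members have no background to be read against.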

How the results depend on the processing

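The log2 fold change of no member named as called changed sign under the alternatives run, but the balance of calls over all genes did. Of 485 recomputed values for named genes, 430 stayed on their side of the threshold and 55 lost it. The members called between RFP+ and RFP- libraries numbered 4, 2 with a replicate block and 2 to 7 with 1 library left out. Between LI and RFP+ libraries there were 2, 5 with a pseudocount of 0.1 and 1 to 2 with 1 library left out, and the genes called fell from 2735 to between 955 and 2526. Between LI and RFP- libraries 8 became 3 to 13. In the Bcl6 experiment the 1 member became 0 with a pseudocount of 0.1 and 0 with quantile normalization, and 1 to 7 with 1 library left out; the genes called, 40, became 40 to 1570. In the Prdm1 experiment the 750 genes became 1230 with DESeq2 and 595 to 1183 with 1 library left out. In the Tcf7 experiment the 413 genes became 218 to 748 and the 5 members 3 to 11.

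Replicate numbers are shared between groups, and no label says that they mark an animal or day. Deviations of same-numbered RFP+ and RFP- libraries correlated at -0.239, -0.014 and -0.33, those of the Bcl6, Prdm1 and Tcf7 pairs at -0.456, 0.546 and 0.07. Differently numbered libraries reached 0.375 (RFP+ 1 with RFP- 2), 0.435 (RFP+ 2 with RFP- 3) and 0.486 (RFP+ 3 with RFP- 1). The remaining RFP+ and RFP- pairs were at -0.091, -0.293 and -0.317. A block by differently numbered pairs was not run for RFP+ and RFP- libraries. A replicate block gave 78 genes in the Bcl6, 2386 in the Prdm1 and 977 in the Tcf7 experiment, with 10 members in the last and 32 in the Prdm1 experiment. A crossed block for Bcl6, chosen after seeing the data, gave 452 genes and 4 members. Rescaling to the same total turned the split of calls between LI and RFP- libraries from 2676 higher and 2841 lower to 4107 and 1801 (median of all genes 0.14), and that between RFP+ and RFP- libraries from 1591 and 2098 to 3300 and 1171, or 2024 and 1744 with quantile normalization. Count tests were not run for Tcf7. Groups of 2, few reads for members under 1 FPKM and unstated strand are limits on the members' values.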
